A study of Ovis aries with 15 samples.

Results

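The receptors and enzymes through which glucocorticoids, thyroid hormone, growth hormone and vitamin D reach the ovine mammary gland form the subject of this report. The members named were NR3C1, NR3C2, FKBP5, HSD11B1, HSD11B2, GHR, ERBA BETA1, THRA and VDR. Of these 9 symbols, 8 matched a row of the 24691-row gene table by symbol. HSD11B2 was read from the row named HSD11K, which RefSeq gives as a synonym, so that 9 genes were analysed. All 9 held enough reads to be tested. They were picked by name, with earlier results of these data known.

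Mammary parenchyma was taken by needle biopsy from 2-year-old primiparous Romney ewes at day 135 ± 2.4 (SD) of gestation (late pregnancy) and at day 15 ± 1.27 (SD) post partum (lactation). RNA was pooled across ewes before sequencing, which gave 9 late pregnancy and 6 lactation libraries. The ewes were the daughters of dams on 3 feeding regimes in early gestation, namely ad libitum (HM), maintenance (MM) and sub-maintenance (LM), and all of these dams were on maintenance feeding later in gestation. Each regime supplied 3 late pregnancy and 2 lactation pools. The ewes themselves were farmed together and were fed alike. Late pregnancy pools held 3 ewes. For the lactation pools the labels name 2 ewes and the methods 3. The same flock was biopsied at both stages, and the labels do not tie a pool at one stage to a pool at the other. A pool averages its ewes, so p-values measure the spread between pools.

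Glucocorticoids act with prolactin and insulin to switch on milk protein genes. Cortisol binds 2 related nuclear receptors, the glucocorticoid receptor (NR3C1) and the mineralocorticoid receptor (NR3C2), and the enzymes HSD11B1 and HSD11B2 regenerate and inactivate it inside the cell. Thyroid hormone binds the nuclear receptors THRA and THRB, and the deiodinases set how much active hormone a cell holds. Growth hormone, which raises milk yield in ruminants, signals through GHR, JAK2 and STAT5. Vitamin D acts through VDR, a nuclear receptor known for its control of calcium transport.

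The tissue carried the markers of its label in every library. Of the counted reads (exon reads, or whole-gene reads where no transcript was annotated), 7 milk protein genes took 13.7% to 23.4% in late pregnancy. In lactation they took 71.3% to 75.8%. Total gene reads ran from 7597938 to 19823166 in late pregnancy and from 10352962 to 25679416 in lactation. Levels are therefore given as CPM (counts per 1e6 reads of a library) scaled by the trimmed mean of M values (TMM), a scaling that sets aside the most abundant and most changed genes. The median tested gene then changed by -0.03 on the log2 scale from late pregnancy to lactation. It changed by -1.94 when libraries were scaled to total reads alone. On that scale most rises given here turn into falls: of the 37 pathway list genes called higher under TMM, CYP17A1, DIO2, ME1 and IRS1 were the 4 still called higher. Of 6 luminal epithelial markers 4 were called higher and none lower in lactation, and their summed CPM ran from 1417 to 1736 before and from 2290 to 2551 after parturition. Those 4 were KRT18, KRT19, EPCAM and ELF5, and on total reads alone they were called lower, by -1.47, -1.29, -1.61 and -1.10. KRT18 and EPCAM lost their call at the upper quartile and with milk protein genes left out of the total, where CDH1 was called lower (edgeR adjusted p = 0.00187 and 0.000257). Of 7 fibroblast markers 6 were lower (summed CPM 1371 to 2168, then 663 to 1057), as were 4 of 5 endothelial markers tested (189 to 258, then 134 to 189), 3 of 5 macrophage markers (103.7 to 136, then 62.2 to 92.1, with CD14 alone higher) and 5 of 5 T cell markers (36.6 to 59.5, then 12.1 to 18.9). Sums of adipocyte markers overlapped (226 to 432, then 311 to 400), with 1 of 5 tested called higher and 0 lower. Those of myoepithelium also overlapped (558 to 632, then 531 to 786), with 3 of 7 tested higher and 2 lower. So did those of B and plasma cells (28.8 to 75.2, then 61.2 to 151), where MZB1 (2.54) and IGJ (0.91) were called higher and CD79A (-1.27) lower. Among the markers called higher, MZB1 alone was still called higher on total reads alone. All these marker counts stand beside 33.1% called higher and 35.2% called lower over all genes tested. In bulk tissue, fewer cells of a type and less RNA per cell cannot be told apart, and the part of cell makeup in the results below was not tested.

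Of the 9 genes, 7 were higher in lactation, HSD11B2 was lower, and THRA did not pass (edgeR quasi-likelihood test, called below an adjusted p of 0.05). Among all 13345 genes tested, 33.1% were called higher and 35.2% lower, so 68.4% were called in one direction or the other. The members' median log2 change was 0.75, against -0.03 over all genes tested. For 6 of the 9 genes the lowest library of one state stood above the highest of the other, as it did for 40.2% of all genes tested. With total reads alone as the scale, 9 members were called lower and 0 higher. A scaling shifts all genes of a library alike, so the differences between members do not depend on it.

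**Figure D1:**
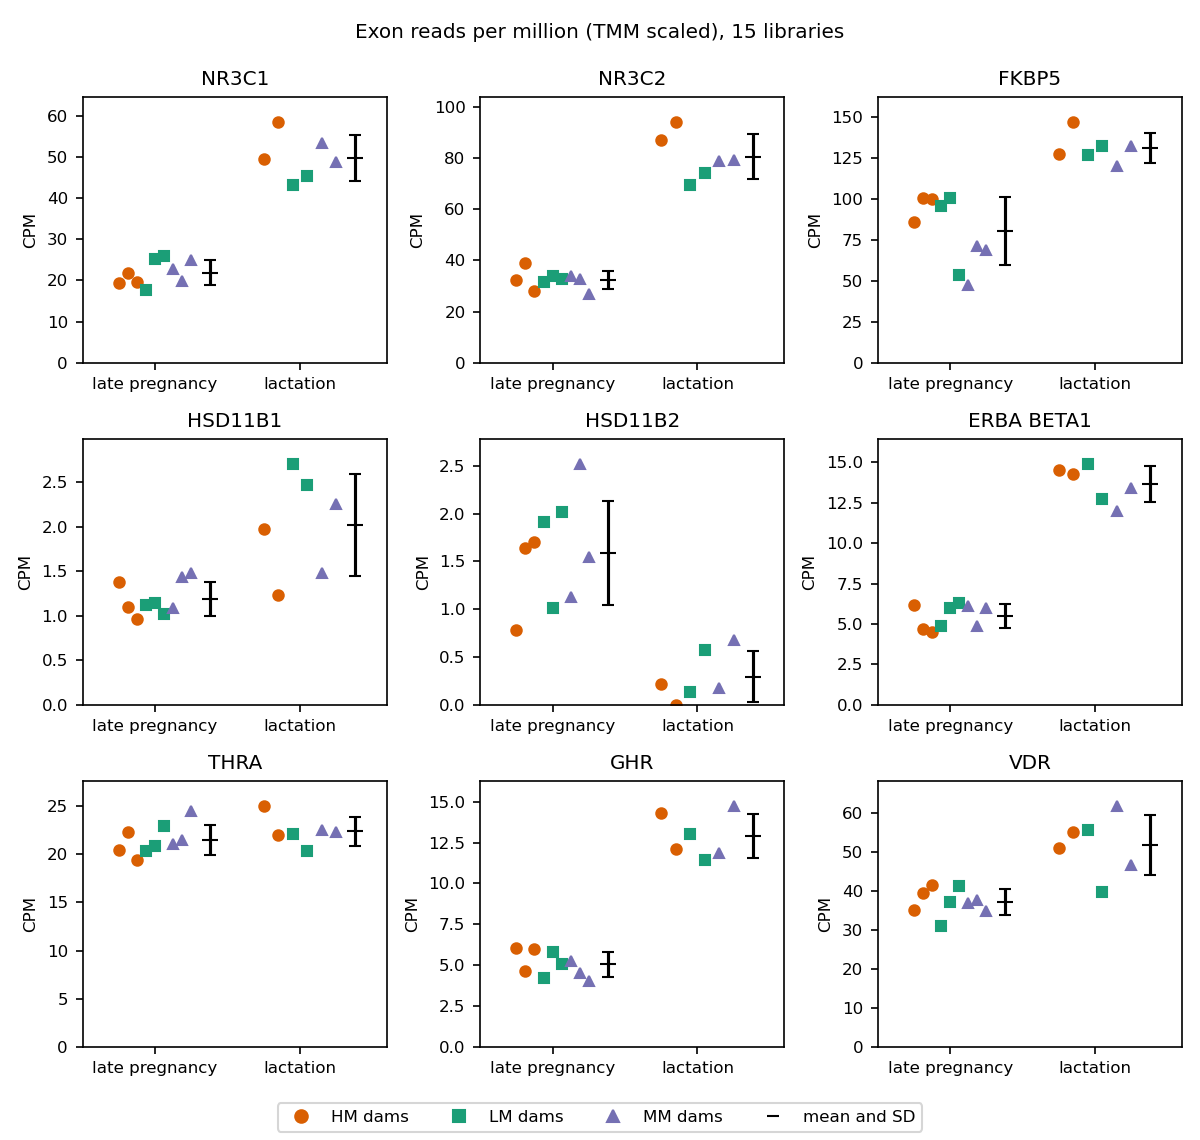
TMM-scaled CPM of exon reads (y axis, from 0) of the 9 genes in each library, by state (x axis). Symbols mark the feeding regime of the ewes' dams, and bars give the mean and SD of 9 late pregnancy and 6 lactation libraries. NR3C1, NR3C2, GHR and ERBA BETA1 sit well above their late pregnancy range in lactation on this scale, HSD11B2 sits near 0 and THRA is level. On total reads alone the other genes are also lower in lactation.

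NR3C1, the glucocorticoid receptor, lies on chromosome 5 from 51737305 to 51848264 with 8 annotated exons. Its level was 17.7 CPM at the lowest, 21.8 at the median and 25.8 at the highest in late pregnancy, and 43.1, 49.1 and 58.5 CPM in lactation. Every lactation library stood above every late pregnancy library, and the log2 change was 1.18 ± 0.09 (SE, n = 9 and 6, edgeR adjusted p = 3.55e-10). NR3C2, the mineralocorticoid receptor (chromosome 17, 9387196 to 9819738, 12 exons), binds cortisol as tightly as it binds aldosterone. It ran from 26.8 through a median of 32.5 to 39.1 CPM in late pregnancy and from 69.6 through 79.0 to 94.2 CPM in lactation. The log2 change was 1.31 ± 0.08 (SE, edgeR adjusted p = 7.14e-12), and again the states did not overlap. On total reads alone, both receptors were lower in lactation, by log2 changes of -0.73 for NR3C1 and -0.59 for NR3C2.

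The balance between the receptors did not differ detectably. The ratio of NR3C1 to NR3C2 in reads per kilobase, which no scaling between libraries can change, had a median of 1.70 in late pregnancy (range 1.40 to 2.35) and 1.56 in lactation (range 1.44 to 1.71). The mean log2 ratio differed by -0.13 between the states (exact two-sided permutation over 5005 splits, p = 0.258, adjusted over 6 ratios p = 0.258). The spread of the log2 ratio was 0.25 (SD) in late pregnancy and 0.08 in lactation.

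The enzymes that act on cortisol before it reaches these receptors moved apart. HSD11B1, which regenerates active cortisol from cortisone (chromosome 12, 71703713 to 71741797, 6 exons), was low in both states. Its level was 0.961, 1.12 and 1.49 CPM (lowest, median, highest) in late pregnancy and 1.23, 2.12 and 2.71 CPM in lactation. All late pregnancy libraries lay below 4 of the 6 lactation libraries, with a log2 change of 0.75 ± 0.19 (SE, edgeR adjusted p = 0.00167). These levels rest on 12 to 34 reads per library in late pregnancy and 7 to 20 in lactation. Among libraries whose column names carry lane 7, the log2 change was 0.28 (edgeR adjusted p = 0.466), and among those named with lane 8 it was 1.11 (adjusted p = 0.00182). Each LM library was named with lane 8, and both lactation HM pools with lane 7. Lane and dam feeding therefore cannot be fully told apart in this split. The run is recorded with 2 lanes per library, so the lane in a name may not be the only lane of that library. On total reads alone it was -1.16.

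HSD11B2 (HSD11K, chromosome 14, 34383786 to 34389513, 5 exons) inactivates cortisol and so keeps it from the mineralocorticoid receptor. The gene was lower in lactation under every scaling tried. The late pregnancy libraries held 17, 18, 23, 53, 30, 53, 27, 51 and 24 reads. The lactation libraries held 1, 0, 1, 3, 2 and 6. In CPM these were 0.784, 1.64 and 2.53 (lowest, median, highest) in late pregnancy and 0, 0.197 and 0.676 in lactation. Each lactation library lay below all late pregnancy libraries. The log2 change was -2.36 ± 0.44 (SE, edgeR adjusted p = 8.38e-05). With so few reads the fitted size depends on the offset, and on quantile-normalised RPKM plus 1 limma gave -0.64 (adjusted p = 5.52e-05). Among libraries named with lane 7 the change was -3.37 (edgeR adjusted p = 0.0036), and among those named with lane 8, which include every LM library, -1.80 (adjusted p = 0.00477).

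Within a library, the balance of the 2 enzymes turned from near parity to an excess of HSD11B1. The ratio of HSD11B1 to HSD11B2 per kilobase had a median of 0.943 in late pregnancy (range 0.718 to 2.43) and 9.31 in lactation (range 4.40 to 20.9). The mean log2 ratio differed by 3.13 (exact two-sided permutation p = 0.0002, the smallest that 5005 splits allow; adjusted p = 0.0004). The ratio of HSD11B2 to the receptor it guards, NR3C2, fell from a median of 0.188 (range 0.0789 to 0.247) to 0.0107 (range 0.00297 to 0.0294), a log2 difference of -3.70 with the same exact p. HSD11B1 relative to NR3C1 had medians of 0.0922 and 0.0788 in the 2 states, and that difference of -0.44 did not pass (exact permutation p = 0.0737, adjusted p = 0.0885). Leaving out late pregnancy LM pool 3, lactation LM pool 1 or lactation LM pool 2 brought this last exact p, before adjustment, to 0.0476, 0.0235 and 0.0405.

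**Figure D2:**
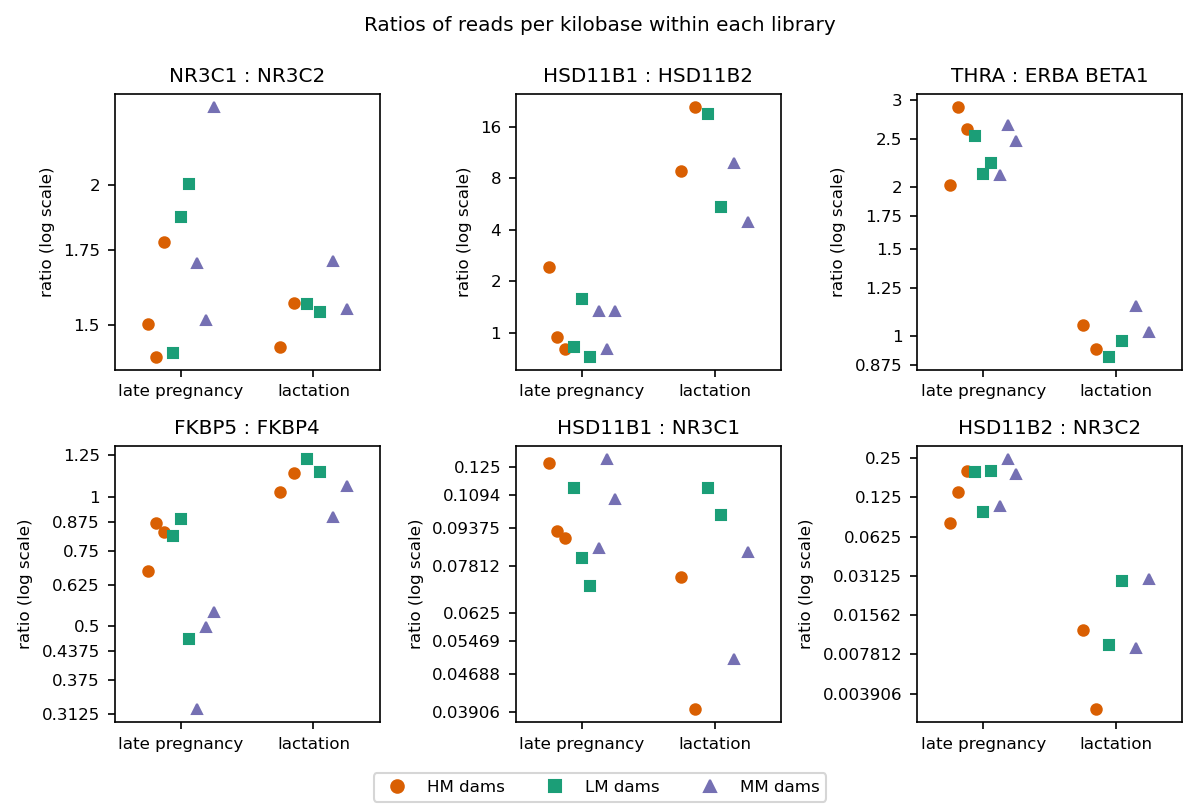
Ratios of reads per kilobase between 2 genes of the same library (y axis, log scale), by state (x axis), for 6 pairs; each point is a library and symbols mark the dams' feeding regime. HSD11B1 to HSD11B2 rises from a median of 0.943 to 9.31 and THRA to ERBA BETA1 falls from 2.48 to 0.997 without overlap, while NR3C1 to NR3C2 overlaps between the states.

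Other genes of corticosteroid supply gave 1 rise and 3 falls among 4 tested of 8 listed, with a median log2 change of -1.18. Over all genes tested, 33.1% were higher and 35.2% lower. H6PD, which makes the NADPH that HSD11B1 uses, fell from 18.3 to 26.9 CPM in late pregnancy to 6.85 to 12.1 CPM in lactation (log2 change -1.25 ± 0.13, edgeR adjusted p = 3.43e-08). CYP11A1, the side-chain cleavage enzyme that starts steroid synthesis, changed by -1.63 ± 0.57 (adjusted p = 0.0153) on at most 7 reads in any lactation library. SRD5A1, a steroid reductase, changed by -1.12 ± 0.12 (adjusted p = 5.29e-08). The rise was in CYP17A1, a steroid hydroxylase, from 0.0647 to 2.12 CPM in late pregnancy to 12.2 to 28.1 CPM in lactation (log2 change 3.94 ± 0.28, adjusted p = 1.45e-10), and it stayed a rise of 2.07 when scaled to total reads alone. Of its reads 40.2% were uniquely placed, and on those the change was 4.11 ± 0.27. SERPINA6, the gene of the cortisol carrier in plasma, held 1 read in all libraries together. ABCB1 and CYP11B1 each had several rows on unplaced scaffolds and CYP21A2 had no row matched, so they were not analysed here.

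FKBP5 (chromosome 20, 9689838 to 9808027, 11 exons) encodes a co-chaperone of the glucocorticoid receptor and is itself a well known glucocorticoid target. Its late pregnancy libraries spread widely, from 47.2 CPM through a median of 85.6 to 101 CPM, while the lactation libraries kept to 119.7, 129 and 147 CPM. No library overlapped, and the log2 change was 0.70 ± 0.14 (SE, edgeR adjusted p = 0.000214). The coefficient of variation was 26.0% in late pregnancy, the largest after HSD11B2 (34.3%) among the 9 genes in that state, and 7.02% in lactation. On total reads alone the log2 change was -1.20. FKBP4, the co-chaperone that takes the place of FKBP5 once hormone binds, ran from 59.4 to 77.1 CPM and from 54.1 to 69.8 CPM. Its log2 change was -0.04 ± 0.07 (edgeR adjusted p = 0.623). At the upper quartile it was called lower (-0.19, edgeR adjusted p = 0.022), as with milk protein genes left out of the total (-0.25, adjusted p = 0.00609). The within-library ratio of FKBP5 to FKBP4 went from a median of 0.671 (range 0.321 to 0.886) to 1.1 (range 0.898 to 1.23), a log2 difference of 0.79 (exact permutation p = 0.003, adjusted p = 0.0045).

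Of 11 tested genes of the receptor's chaperone machinery, 7 rose, 3 fell and FKBP4 was not called, beside 33.1% higher and 35.2% lower over all genes tested. The median log2 change of the 11 was 0.30. At the upper quartile and with milk protein genes left out of the total, STIP1 and STUB1 lost their call as higher and FKBP4 was called lower. On total reads alone, all 11 were called lower. HSPA8, a constitutive HSP70 chaperone, rose from 616 to 854 CPM to a range of 1380 to 1860 CPM (log2 change 1.29 ± 0.08, edgeR adjusted p = 1.95e-11), and its co-chaperone DNAJB1 by 1.03 ± 0.09. The falls were led by HSP90AB1, one of the HSP90 chaperones that hold the receptor ready for hormone, at -0.57 ± 0.06 (adjusted p = 1.97e-08), and PPID, an HSP90-bound immunophilin, at -0.39 ± 0.06. The other HSP90 gene, HSP90AA1, changed by 0.53 ± 0.07 (adjusted p = 9.18e-07). PPP5C was not analysed here. Of the reads of HSPA8 and PPID, 82.6% and 80.5% were uniquely placed, and on those the changes were 1.30 and -0.44.

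Of 17 known glucocorticoid target genes tested, 6 rose, 4 fell and 7 were not called, with a median log2 change of 0.09, beside 68.4% called over all genes tested. With milk protein genes left out of the total, 4 were higher and 8 lower, and on total reads alone 17 were lower and 0 higher. ZBTB16, a zinc finger transcription factor, went from 2.57 to 5.95 CPM in late pregnancy to 7.47 to 15.1 CPM in lactation (log2 change 1.52 ± 0.16, edgeR adjusted p = 4.85e-08). GLUL, glutamine synthetase, went from 83.5 to 105 CPM to 227 to 330 CPM (1.51 ± 0.08, adjusted p = 1.01e-12; 1.49 on the 70.8% of its reads that were uniquely placed). PDK4, which restrains pyruvate oxidation, fell by 1.33 on the log2 scale (SE 0.21, adjusted p = 1.01e-05), and ANGPTL4, an inhibitor of lipoprotein lipase, by 0.93 (SE 0.12, adjusted p = 8.24e-07). Several of the most used target genes were among those not called on the TMM scale: TSC22D3 at 0.09 ± 0.09, PER1 at 0.09 ± 0.11, KLF9 at 0.01 ± 0.07 and SGK1 at -0.12 ± 0.14. With milk protein genes left out of the total, KLF9 (-0.20, edgeR adjusted p = 0.0156) and SGK1 (-0.32, adjusted p = 0.0398) were called lower, and TSC22D3 and PER1 were not called. TXNIP was not analysed here.

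Over the 9 late pregnancy libraries, where FKBP5 varied, Pearson's r of log2 CPM between FKBP5 and the 17 target genes had a median of 0.09 and ran from -0.72 (CEBPD) to 0.59 (ERRFI1). Over all tested genes the median was -0.02, with a 5th to 95th percentile range from -0.56 to 0.55. Both extremes lay beyond that range, but the range leaves out genes at each end by its definition, so this does not set the 17 apart. The r of FKBP5 with NR3C1 was -0.44. These points share their library's scaling and no test was made.

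Of 11 coregulators that nuclear receptors recruit, 9 rose on the TMM scale, with PPARGC1A lower and THRAP3 not called (median log2 change 0.48), beside 33.1% higher and 35.2% lower over all genes tested. With milk protein genes left out of the total, 7 were higher and 2 lower, and on total reads alone all 11 were lower. NCOA2, a p160 coactivator, rose from a range of 14.5 to 24.4 CPM to 48.0 to 54.9 CPM (1.43 ± 0.09, edgeR adjusted p = 2.66e-11). Its relative NCOA3 rose by 1.31 ± 0.08 (adjusted p = 2.63e-11). PPARGC1A, a coactivator of mitochondrial genes, changed by -1.80 ± 0.44 (adjusted p = 0.00131) on 1 to 5 reads per lactation library.

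Among mineralocorticoid targets 2 rose, 1 fell and SGK1 was not called, out of 4 tested of 7 listed (median 0.10). Over all genes tested, 33.1% were higher and 35.2% lower. On total reads alone 4 of these targets were lower. SGK1 was also called lower with milk protein genes left out of the total (-0.32, edgeR adjusted p = 0.0398). NEDD4L, a ubiquitin ligase of the epithelial sodium channel, changed by 0.40 ± 0.11 (edgeR adjusted p = 0.00295), a call that was lost when libraries were scaled to reads outside the milk protein genes. ATP1B1, a subunit of the sodium pump, changed by -0.53 ± 0.18 (adjusted p = 0.0152). The sodium channel's own subunits SCNN1A, SCNN1B and SCNN1G were too low to test, with 50, 10 and 0 reads over the late pregnancy libraries and 9, 1 and 12 over the lactation libraries.

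**Figure D3:**
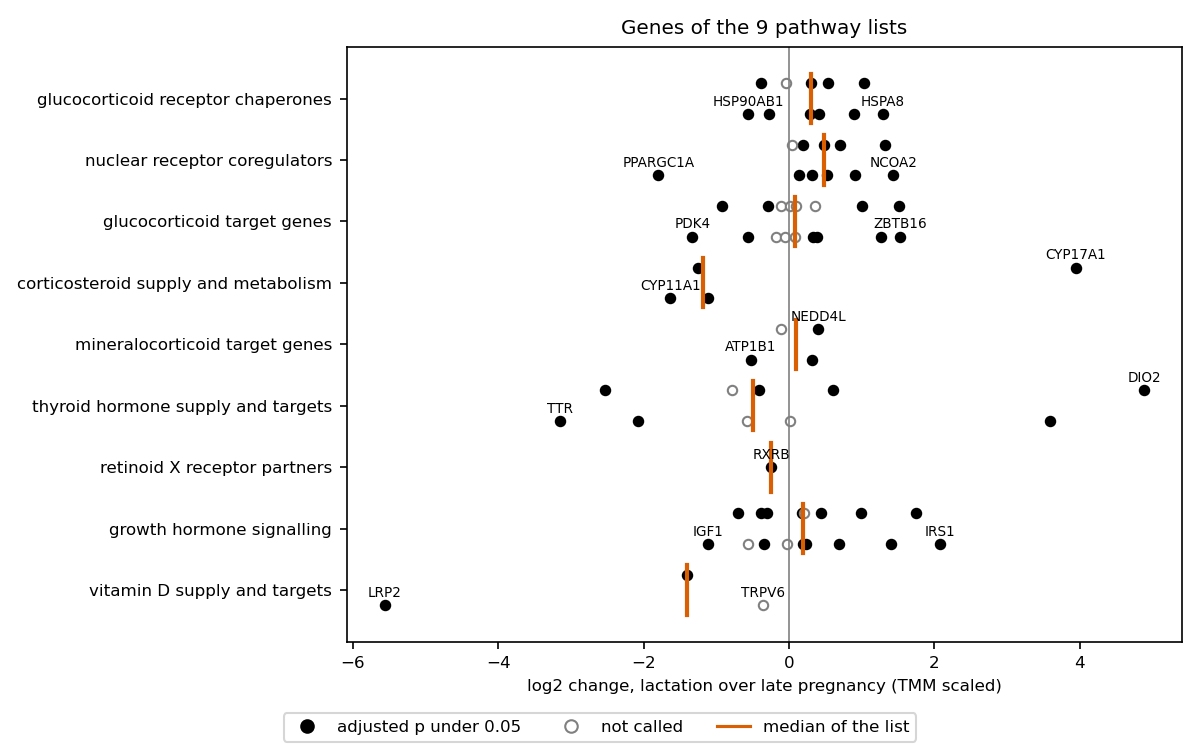
Log2 change from late pregnancy to lactation on the TMM scale (x axis) of the tested genes in 9 pathway lists (y axis). Filled points passed the edgeR test at adjusted p under 0.05, orange bars mark each list's median, and the lowest and highest gene of a list are named. Most lists hold rises and falls side by side; DIO2 at 4.88 and LRP2 at -5.56 stand farthest out, and scaled to total reads alone all points shift down together.

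The thyroid hormone receptors parted. ERBA BETA1, the name under which the table lists the beta receptor THRB (chromosome 26, 40310591 to 40391676, 7 exons), stood at 4.51, 5.98 and 6.27 CPM (lowest, median, highest) in late pregnancy and at 12.0, 13.8 and 14.9 CPM in lactation. The states did not overlap and the log2 change was 1.29 ± 0.10 (SE, edgeR adjusted p = 3.18e-10). THRA, the alpha receptor (chromosome 11, 39957729 to 39967598, 8 exons), stood at 19.4, 21.1 and 24.4 CPM and then at 20.4, 22.2 and 25.1 CPM. Its log2 change was 0.06 ± 0.06 (adjusted p = 0.397). On total reads alone, the changes were -0.61 for ERBA BETA1 and -1.85 for THRA, and the gap between the receptors was as wide.

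Their ratio shows the same gap free of any scaling. Per kilobase, THRA exceeded ERBA BETA1 by a median of 2.48 times in late pregnancy (range 2.02 to 2.91). In lactation the median ratio was 0.997 (range 0.907 to 1.15), and THRA was the higher in 3 of the 6 libraries. The log2 difference of -1.25 had an exact permutation p of 0.0002, the smallest possible (adjusted p = 0.0004). Leaving out any 1 library kept it between -1.29 and -1.22. The THRA model in the table has 1 transcript and ends 2955 bases short of its neighbour NR1D1. The library kit does not record strand, and reads of any longer THRA transcript lying in NR1D1 would not be counted here.

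Genes of thyroid hormone supply, with known targets of the hormone, moved in both directions. Of 10 tested among 14 listed, 3 rose, 4 fell and 3 were not called, with a median log2 change of -0.50. Over all genes tested, 33.1% were higher and 35.2% lower. DIO2, the deiodinase that makes active T3 from T4, went from 1.34, 1.72 and 3.02 CPM (lowest, median, highest) to between 42.9 and 70.5 CPM, a log2 change of 4.88 ± 0.14 (edgeR adjusted p = 2.09e-16). It was still a rise of 2.97 scaled to total reads alone. ME1, a thyroid-responsive malic enzyme that supplies NADPH, rose by 3.59 ± 0.25 (adjusted p = 8.98e-11), and by 1.72 scaled to total reads alone.

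TTR, transthyretin, a thyroid hormone carrier, held 3 to 46 reads per library in late pregnancy and 0 to 2 in lactation, and was at least 2.34-fold lower against a floor of 3 reads per lactation library. With TTR at that bound the list's median was still -0.50. CRYM, a cytosolic T3-binding protein, held 7 to 29 reads and then 0 to 4. KLF9, a target of thyroid hormone as well as of glucocorticoids, and THRSP at -0.58 ± 0.28 (adjusted p = 0.075) were not called. With milk protein genes left out of the total both were called lower (edgeR adjusted p = 0.0156 and 0.0171), and THRSP also at the upper quartile (0.0262). DIO1 held 10 reads in late pregnancy and 1 in lactation, and DIO3, which inactivates thyroid hormone, 1 and 2. SLC7A5 and SLC7A8 were not analysed here. The only retinoid X receptor tested, RXRB, a partner of THRA, THRB and VDR on DNA, changed by -0.25 ± 0.08 (adjusted p = 0.00696). RXRG held 63 and 12 reads over the late pregnancy and lactation libraries, and RXRA was not analysed here.

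GHR, the growth hormone receptor (chromosome 16, 31832803 to 32010894, 10 exons), stood at 4.01, 5.06 and 6.04 CPM (lowest, median, highest) in late pregnancy. In lactation it stood at 11.4, 12.6 and 14.8 CPM, each library above all late pregnancy libraries. With a log2 change of 1.35 ± 0.11 (SE, edgeR adjusted p = 7.84e-10) it had the highest value among the 9 genes. NR3C2 (1.31 ± 0.08) and ERBA BETA1 (1.29 ± 0.10) were too close to GHR to be ranked apart. Scaled to total reads alone, GHR changed by -0.56. Of 17 tested genes that act downstream, 9 rose, 5 fell and 3 were not called (median log2 change 0.19). Over all genes tested, 33.1% were higher and 35.2% lower. Scaled to total reads alone, 1 of the 17 was called higher and 15 lower.

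IRS1, a docking protein of insulin and growth hormone signalling, rose from 11.2 to 16.4 CPM to between 54.2 and 65.8 CPM (log2 change 2.08 ± 0.08, edgeR adjusted p = 1.26e-14; 0.18 scaled to total reads alone). CISH, an inhibitor that STAT5 induces, rose from 16.9 to 20.8 CPM to between 53.6 and 78.4 CPM (1.74 ± 0.08, adjusted p = 9.27e-14; -0.17 scaled to total reads alone). JAK2, the kinase bound to GHR, changed by 0.99 ± 0.10 (adjusted p = 4.08e-08; -0.92 scaled to total reads alone). The STAT5 genes, of whose reads 82.7% (STAT5A) and 89.8% (STAT5B) were uniquely placed, went the other way, with STAT5A at -0.35 ± 0.06 (adjusted p = 3.8e-05) and STAT5B at -0.31 ± 0.06 (adjusted p = 0.000134). IGF1, the growth factor that growth hormone induces in liver, changed by -1.12 ± 0.45 (adjusted p = 0.0321) on 1 to 5 reads per lactation library. SOCS1, with 56 and 73 reads over the 2 states, was too low to test, and GH itself held 1 read in all 15 libraries.

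VDR (chromosome 3, 138415620 to 138532513, 11 exons, of which 20 bases overlap TMEM106C) ran from 30.9 through 37.1 to 41.4 CPM in late pregnancy. In lactation it ran from 39.8 through 53.0 to 61.9 CPM, and 5 of the 6 libraries stood above all late pregnancy libraries. The log2 change was 0.48 ± 0.08 (SE, edgeR adjusted p = 3.22e-05). It was the smallest of the 7 rises, and it came to 0.33 at the upper quartile, 0.27 with milk protein genes left out of the total and 0.25 on quantile-normalised RPKM plus 1, each still called, and to -1.42 on total reads alone.

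Vitamin D partners were mostly beyond reach, with 3 tested of 12 listed and a median log2 change of -1.40. LRP2 (megalin), the endocytic receptor that takes up vitamin D with its carrier, went from 250, 314 and 382 CPM (lowest, median, highest) to between 4.95 and 8.70 CPM (log2 change -5.56 ± 0.14, edgeR adjusted p = 5.86e-17). ATP2B1, a plasma membrane calcium pump, fell from 65.5 to 81.9 CPM to between 23.2 and 31.8 CPM (-1.40 ± 0.07, adjusted p = 1.5e-12). The calcium channel gene TRPV6 was not called, at -0.36 ± 0.49 (adjusted p = 0.528). Too low to test were CUBN, TRPV5, S100G and CALB1, with 24, 1, 8 and 53 reads over the late pregnancy libraries and 19, 0, 7 and 19 over the lactation libraries. GC, the carrier's own gene, held no read, and CYP24A1, CYP27B1, CYP2R1 and CYP27A1 were not analysed here.

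Intron reads are whole-gene reads less exon reads, and can hold unspliced RNA as well as any exon missing from the gene model. They gave a second measurement of 8 members in the same libraries, HSD11B2 having 20 intron reads in late pregnancy and 0 in lactation. Of these 8, 7 were called higher in lactation and THRA lower by edgeR. Their median log2 change was 1.11, against -0.01 over all 10344 genes tested. Of all those genes 29% were called higher and 29% lower, 58% in all. The change in intron reads was 1.82 ± 0.14 for GHR (adjusted p = 1.13e-10), 1.65 ± 0.10 for NR3C2 (adjusted p = 1.82e-12), 1.43 ± 0.11 for ERBA BETA1 and 1.17 ± 0.23 for FKBP5, against exon changes of 1.35, 1.31, 1.29 and 0.70. NR3C1 gave 1.05 ± 0.11, HSD11B1 0.99 ± 0.25 and VDR 0.54 ± 0.13. THRA was the gene where introns and exons parted, at -0.91 ± 0.20 in introns (adjusted p = 0.000427) beside 0.06 ± 0.06 in exons. The intron changes are on the TMM scale, and scaling to total reads alone was not tried for them.

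**Figure D4:**
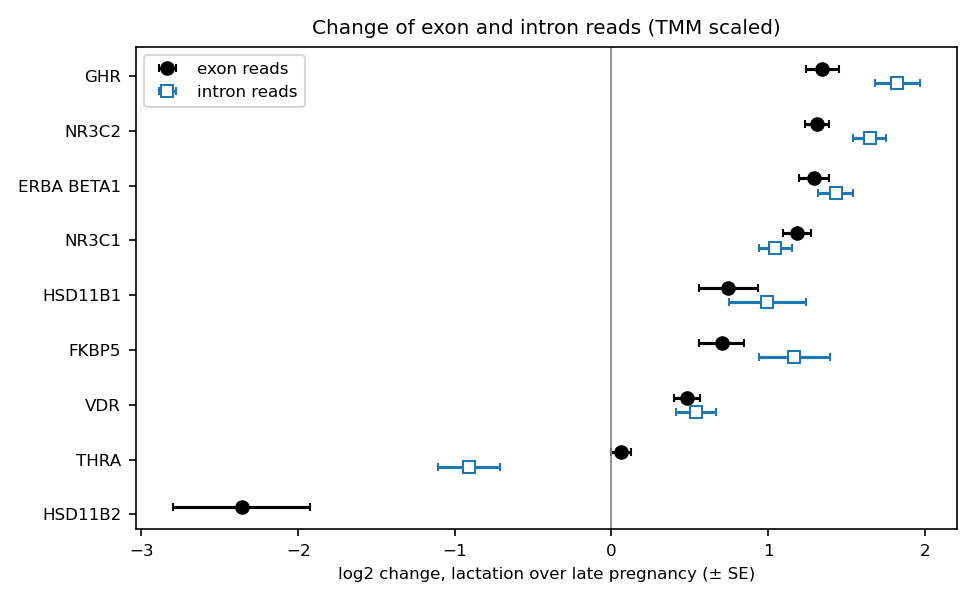
Log2 change from late pregnancy to lactation on the TMM scale (x axis, ± SE, n = 9 and 6 libraries) of exon reads (filled circles) and intron reads (open squares) for the 9 genes (y axis). In 7 genes both lie to the right of 0, THRA has an exon change of 0.06 beside an intron change of -0.91, and HSD11B2 has no intron value; exon and intron reads were scaled separately.

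The share of a gene's reads that lies in introns is free of scaling between libraries. For THRA it was 6.87%, 8.48% and 14.0% (lowest, median, highest) in late pregnancy and 4.12%, 5.24% and 6.96% in lactation, the states touching at 1 library each. Over the 5141 genes with at least 100 reads in every library, the median share was 13.7% in both states. GHR went from a mean of 21.8% ± 4.41 (SD, n = 9) to 28.6% ± 4.15 (SD, n = 6), NR3C2 from 25.7% ± 3.26 to 31.5% ± 4.56, and FKBP5 from 8.06% ± 2.79 to 11.3% ± 2.65. In each of these the states shared part of their range. NR3C1 stayed at 34.0% ± 4.35 and 32.9% ± 4.26. VDR had the largest share of the 9 genes in late pregnancy, 43.6% ± 3.26, and 45.8% ± 4.22 in lactation. THRA intron reads numbered 18 to 72 per library in late pregnancy and 6 to 15 in lactation, and its call was absent when 10 reads in every library were required.

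**Figure D5:**
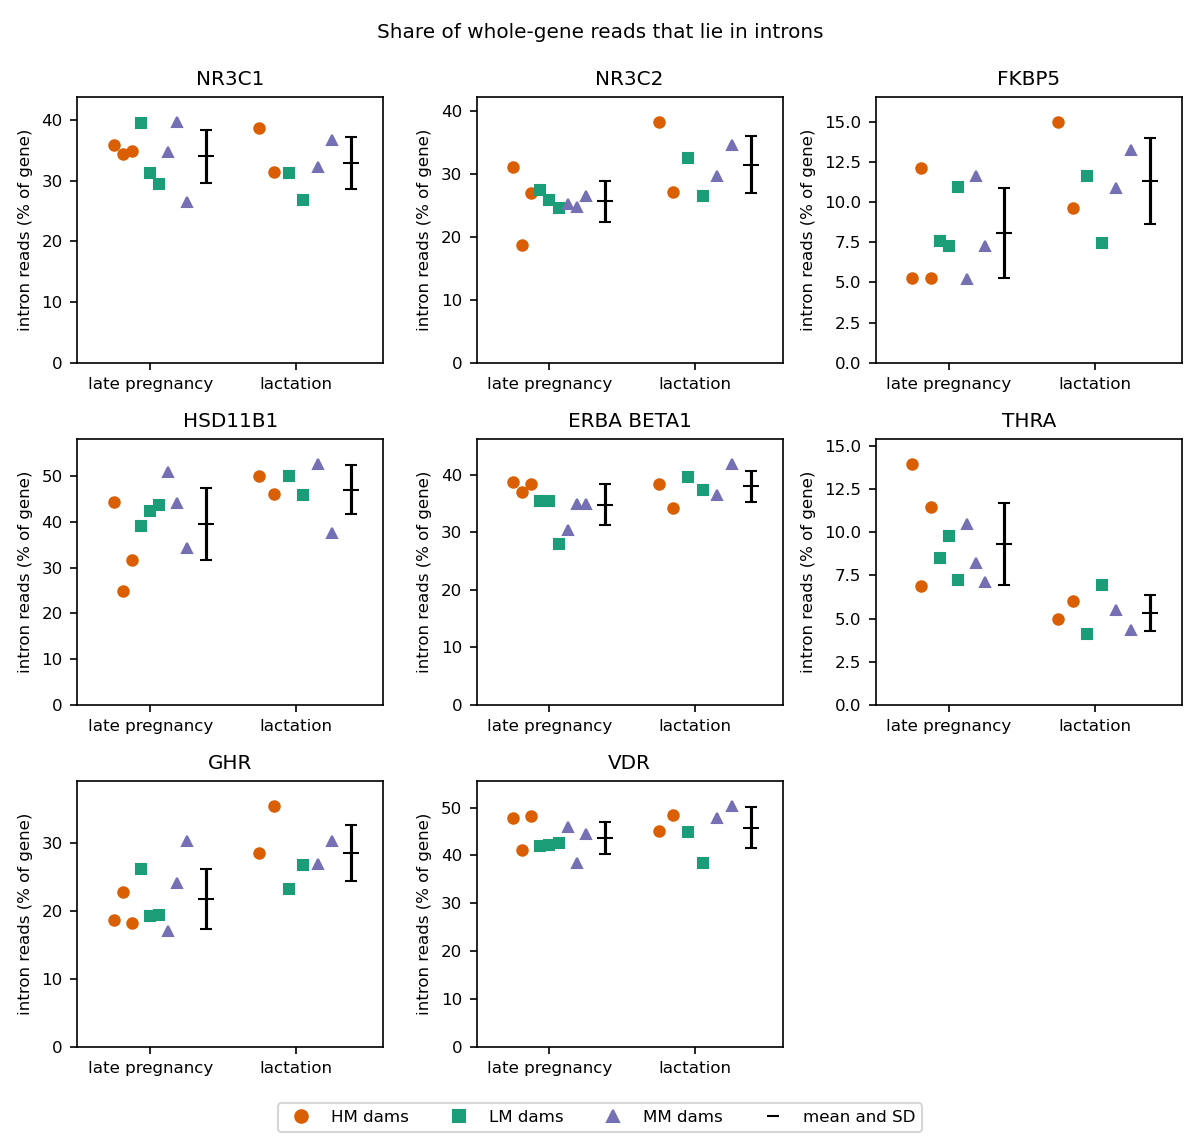
Share of each gene's reads that lie in introns (y axis, percent, from 0) in each library, by state (x axis), for 8 genes; symbols mark the dams' feeding regime and bars give mean and SD (9 and 6 libraries). THRA drops from a median of 8.48% to 5.24%, while NR3C1 and VDR keep nearly the same share.

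The feeding of the ewes' own dams gave no call among the 9 genes. On simulated late pregnancy counts with LM changed, the same test recovered 43% of 1.5-fold and 75% of 2-fold changes, so such changes can go uncalled. All LM pools were named with lane 8, so the LM regime and lane cannot be fully told apart. Across 13747 genes tested in late pregnancy (3 pools per regime), edgeR called 0 genes (0%), 571 (4.15%) had an unadjusted p under 0.05 and DESeq2 called 20 (0.146%). FKBP5 had the lowest unadjusted p of the members (0.0393, adjusted p = 0.9997). Its means were 95.3 ± 8.35 CPM in HM, 83.2 ± 26.0 in LM and 62.4 ± 13.2 in MM (SD, n = 3 each). LM pool 3, at 53.3 CPM, stood with the MM pools of 47.2, 71.3 and 68.7, whereas LM pools 1 and 2, at 95.7 and 100.5, stood with the HM pools. In lactation the means were 137, 129 and 126 CPM with 2 pools each. For the interaction of state and feeding edgeR called 0 of 13345 genes (0%), 876 (6.56%) had an unadjusted p under 0.05 and DESeq2 called 19 (0.142%); the members' lowest unadjusted p was 0.117 (NR3C1, adjusted p = 0.809). None of the members was among the genes DESeq2 called.

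Set against each other per kilobase of exon, the members changed places in the middle of their order. In late pregnancy VDR (21.8 ± 1.96 CPM per kilobase, SD) and FKBP5 (21.7 ± 5.64) led and could not be separated, followed by THRA (9.67 ± 0.70) and NR3C1 (9.33 ± 1.26), which also overlapped. NR3C2 (5.46 ± 0.61) and ERBA BETA1 (4.04 ± 0.54) came next. Their ranges overlapped, though NR3C2 was the higher in each of the 9 libraries. GHR (2.27 ± 0.35) followed, and HSD11B1 (0.896 ± 0.143) and HSD11B2 (0.853 ± 0.293) were lowest and overlapped. In lactation FKBP5 (35.3 ± 2.47) and VDR (30.3 ± 4.51) still led and overlapped, and VDR also touched the range of NR3C1. NR3C1 (21.2 ± 2.37) and NR3C2 (13.6 ± 1.5) had moved ahead of THRA (10.1 ± 0.68), which was level with ERBA BETA1 (10.0 ± 0.82). GHR (5.79 ± 0.61), HSD11B1 (1.52 ± 0.43) and HSD11B2 (0.159 ± 0.143) closed the order with no overlap between them.

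Over all 15 libraries the genes whose log2 CPM ran most like a member's, among 10701 candidates, were mostly ones that changed between the states as the member did. They were ZMPSTE24 (Pearson's r = 0.99) and DENND4A (0.98) for NR3C1, ARL15 (0.99) and CNOT4 (0.99) for NR3C2, ELL2 (0.98) and EIF5 (0.98) for GHR, and TNRC6C (0.98) and ATP6V0A1 (0.98) for ERBA BETA1. For VDR they were IP6K1 (0.94) and PITPNM2 (0.94), for FKBP5 POLB (0.92) and CCDC126 (0.91), for HSD11B1 PELO (0.91) and C11H17orf80 (0.89), and for HSD11B2 KRI1 (0.94) and DAXX (0.94). With the state means removed, r for these 16 genes ran from 0.69 to 0.86. THRA, which did not differ between states, was most like ZMAT3 (0.93; 0.92 with state means removed) and SNX30 (0.79; 0.82). These are the highest of many correlations over libraries that share a state and a scaling, and they are given as a description.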

How the data were processed

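Libraries were made with the TruSeq RNA v2 kit, which does not record strand, and sequenced as 100 bp paired reads on a HiSeq 2000. Per the methods, the authors mapped reads to sheep genome version 3.2 in CLC Genomics Workbench (the submitters' processing notes name Oar_v3.1; coordinates are as deposited). The deposited table gives, per gene and library, read counts over exons, introns and the whole gene, RPKM, and quantile-normalised RPKM that the authors computed. It also holds the authors' own group comparisons, which were not used. Exon read counts were used here, or whole-gene counts where no transcript was annotated. RefSeq (ARS-UI_Ramb_v3.0) served for synonyms alone. No sequence is printed.

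The main test was edgeR 4.0.16 quasi-likelihood (filterByExpr, TMM), lactation against late pregnancy, Benjamini-Hochberg adjusted over all genes tested. The feeding, interaction and intron models used the same tool. DESeq2 1.42.0 and limma 3.58.1 (pseudocounts 1 and 0.1) were alternatives, beside other scalings, filters, lanes and leaving out each library. Ratios used reads plus 0.5 per kilobase, because HSD11B2 held 0 reads in 1 library; the plan had been plain RPKM. They were tested by exact permutation (two-sided, scipy 1.17.1). Scripts were tested on simulated counts. Named list genes are the 2 largest rises and falls called, plus genes not tested; some of these are not reported here, and other genes were named after their values were seen. The members and lists were chosen with earlier results of these data known. Intervals of error cover the spread between pools. Pool numbers were not used to pair samples in the main test. Over 6 same-numbered pairs the correlation of deviations ran from -0.04 to 0.10, which cannot show whether such pools share ewes.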

Additional observations from a re-analysis of the deposited data

How the results depend on the processing

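The 7 risen members stayed higher and called, and HSD11B2 lower and called, under the alternatives run, with these exceptions. Scaled to library size alone, NR3C1 changed by -0.73, NR3C2 by -0.59, FKBP5 by -1.20, HSD11B1 by -1.16, GHR by -0.56, ERBA BETA1 by -0.61, THRA by -1.85 and VDR by -1.42, and 352 genes were called higher and 12705 lower, with 0 members higher and 9 lower. That scaling moves the median gene by itself (-1.94). Among libraries named with lane 7 HSD11B1 was not called (0.28). HSD11B2 was -3.37 there and -1.80 among those named with lane 8. All LM libraries were named with lane 8, so lane and dam feeding cannot be fully told apart, and the cause was not tested. Requiring 10 reads in every library removed HSD11B1 and HSD11B2 from the test, leaving 0 members lower, and 0 lower on introns. The share of calls that were lower was 51.6% with TMM, 63.7% at the upper quartile, 68.1% without milk protein genes and 97.3% on library size alone.

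Leaving out 1 library gave 8891 to 9049 genes called (4316 to 4407 higher, 4575 to 4657 lower), with 7 members higher and 1 lower each time, on exons and on introns. Log2 changes then stayed within 1.13 to 1.22 for NR3C1, 1.26 to 1.35 for NR3C2, 0.63 to 0.75 for FKBP5, 0.64 to 0.85 for HSD11B1, -2.90 to -2.16 for HSD11B2, 1.30 to 1.38 for GHR, 1.26 to 1.33 for ERBA BETA1, 0.03 to 0.08 for THRA and 0.42 to 0.54 for VDR. The log2 ratio differences ran from -0.57 to -0.27 for HSD11B1 to NR3C1, 2.91 to 3.36 for HSD11B1 to HSD11B2, -3.97 to -3.30 for HSD11B2 to NR3C2, -1.29 to -1.22 for THRA to ERBA BETA1, 0.67 to 0.85 for FKBP5 to FKBP4 and -0.16 to -0.07 for NR3C1 to NR3C2. The feeding test in late pregnancy then called 0 to 1 genes (1 without LM pool 1) and the interaction 0 to 10 (10 without lactation HM pool 2, 2 without lactation LM pool 2); DESeq2 called 20 and 19, and the interaction with no filter called 2.

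With the pool number as a replicate block, 8464 genes were called, 4104 higher and 4360 lower, and 7 members higher and 1 lower. In 2 of the 6 same-numbered pairs the lactation library correlated best with its own number.

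For the lists, scaling moved the following. Chaperones had a median of 0.15 at the upper quartile, 0.0935 without milk protein genes and -1.60 on library size alone (0 higher, 11 lower). Coregulators had 0.33 (2 lower), 0.27 (7 higher, 2 lower) and -1.43 (0 higher, 11 lower). Glucocorticoid targets had -0.0645, -0.13 (4 higher, 8 lower) and -1.81 (0 higher, 17 lower). Growth hormone signalling had 0.036, -0.0239 and -1.72 (1 higher, 15 lower). Retinoid X partners had -0.40, -0.46 and -2.16. Thyroid genes had -0.70 without milk protein genes (2 higher, 6 lower) and -2.40 on library size alone (8 lower). Mineralocorticoid targets had 0 higher and 2 lower without milk protein genes, and -1.81 (0 higher, 4 lower) on library size alone. Corticosteroid supply and vitamin D genes had -3.09 and -3.31 on library size alone. At the depth of these libraries, HSD11B1, HSD11B2, CYP11A1, IGF1 and CRYM rest on few reads in lactation.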
